A study of Homo sapiens with 121 samples.

Results

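Transcripts of the nuclear-encoded subunits of respiratory complex I were examined in 121 single human embryonic stem cells (hESCs). Subunits were taken as all genes of the expression table whose symbol begins with NDUFA, NDUFB, NDUFC, NDUFS or NDUFV, without the assembly factors named NDUFAF and without hyphenated read-through symbols. This rule selected 39 of 25610 genes. In the study, genomic DNA and polyadenylated mRNA of the same cell were separated, telomere length was measured on the DNA as a T/R ratio (telomere repeat signal over that of an Alu reference, by qPCR), and the mRNA was sequenced after Smart-seq2 amplification. All cells came from the hESC line WA26, kept undifferentiated in E8 medium on Matrigel with a Rock inhibitor added at passage, with no further treatment or genetic change in the labels. They fall into 81 long, 25 medium and 15 short telomere cells.

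Complex I, the NADH:ubiquinone oxidoreductase, passes electrons from NADH to ubiquinone and pumps protons across the inner mitochondrial membrane. Its core subunits have counterparts in bacteria and carry the flavin, the iron-sulfur clusters and the quinone site in a peripheral arm, while the proton channels lie in a membrane arm. The accessory subunits, which surround the core, serve stability, assembly and regulation. Pluripotent cells are known to rely strongly on glycolysis rather than on respiration.

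Of the 39 subunits, 7 are core subunits, NDUFV1, NDUFV2, NDUFS1, NDUFS3, NDUFS7 and NDUFS8 among them, and 32 are accessory. The core subunits encoded in mitochondrial DNA were not analysed here. The labels name no culture, plate or batch for the cells, so each telomere group was taken as 1 sample, and group differences are given as descriptions of these cells, with the SD across cells and without a p-value. Levels are the deposited TPM values, read here as scaled to a common total per cell after division by gene length, although the sources differ on how they were made, and differences are between means of log2(TPM + 1). Genes were read where TPM averaged 10 or more over all cells, which held for 6213 genes (tested genes) and for 38 of the 39 subunits, and it was called if a difference reached 1 on the log2 scale, that is 2-fold.

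The number of genes above TPM 1 ranged from 2030 to 11515 per cell and differed between the groups, with 8296 ± 2152 (SD, n = 81) in long, 7980 ± 2070 (SD, n = 25) in medium and 5784 ± 2355 (SD, n = 15) in short telomere cells. Cells were therefore also read apart as 68 gene-rich cells, with more than 8000 genes above TPM 1 (51 long, 14 medium and 3 short), and 53 gene-poor cells (30 long, 11 medium and 12 short). No cell lay between 7686 and 8064 detected genes. The 8 pluripotency markers were above TPM 1 in 93.4% to 100% of cells. Their summed level was 969 to 4249 TPM in long (median 3105) and 587 to 2925 TPM in short telomere cells (median 1340). Lineage markers were low, with GATA6, HAND1 and LUM at 0 in every cell and only 1 of 21 lineage and fibroblast markers reaching a mean TPM of 10. Some were detected often, in up to 63.6% of cells for a fibroblast, 38.0% for a mesoderm and 27.3% for an ectoderm or neural marker. Median sums in long and short telomere cells were 0.93 and 7.64 TPM for mesoderm and 5.64 and 0.12 TPM for fibroblast markers. For endoderm, ectoderm and neural, and trophoblast markers they were at most 0.31 TPM. Short telomere cell 6 stood apart: 27 of the 38 subunits were above TPM 1 in it, and NDUFB4 alone made up 90.7% of its complex I transcripts. For many results the value without this cell is also given. Fewer RNA molecules captured and fewer made per cell cannot be told apart in these values.

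The letters ANATGGC, a core of the binding sequence of the transcription factor YY1, were the most frequent of 4 motifs searched in the subunit promoters. RefSeq promoters (GRCh38.p14, from 250 bases before to 50 bases after the transcription start) were matched by symbol for 32 of the 39 subunits, 4 of them with more than 1 promoter. ANATGGC, read on both strands, was in 13 of the 32 (40.6%), against 14.0% of all 35116 promoters and 22.9% of tested genes. Within the stretch at or after the start it was in 11 of 32 (34.4%), against 4.71% of all promoters and 12.7% of tested genes. In 9 of these 11 the letters lay on the gene's own strand, beginning 10 to 27 bases after the start, and in all 9 the ATG inside them opens an annotated coding sequence. The windows of 30 bases are shown because they set these 9 genes side by side, with the 7 matching letters in capitals.
NDUFA3 (chr19:54102865-54102894, + strand): ccgcggagacaaAGATGGCtgcgagtaagt
NDUFA6 (chr22:42090729-42090758, - strand): gatgctttggcaAGATGGCggggagcggcg
NDUFA7 (chr19:8321343-8321372, - strand): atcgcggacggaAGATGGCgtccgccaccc
NDUFA9 (chr12:4649113-4649142, + strand): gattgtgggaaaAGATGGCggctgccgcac
NDUFB8 (chr10:100529836-100529865, - strand): tgaagaaggtgaAGATGGCggtggccaggg
NDUFS3 (chr11:47579078-47579107, + strand): tgcatctgagtaACATGGCggcggcggcgg
NDUFS4 (chr5:53560649-53560678, + strand): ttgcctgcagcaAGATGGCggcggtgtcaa
NDUFS6 (chr5:1801404-1801433, + strand): gccagcggcgcaAAATGGCggcggcgatga
NDUFS7 (chr19:1383913-1383942, + strand): aggccgaggccaAGATGGCggtgctgtcag
The 9 genes include the core subunits NDUFS3 and NDUFS7. NDUFS1 and NDUFV2 held the letters on the other strand. A match describes letters only and is not a measured binding site.

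The other motifs were searched on both strands of the same windows, and no matches of different motifs overlapped in a subunit promoter. The NRF1 letters, GCGCA and GCGC set apart by 1 base of any kind, belong to nuclear respiratory factor 1 and were in 6 of 32 subunit promoters (18.8%), against 5.78% of all promoters and 15.6% of tested genes. The ETS/GABP letters CCGGAAG were in 5 (15.6%), against 10.3% and 26.8%, and TATAAA in 3 (9.38%), against 11.5% and 7.70%. The 250 bases before the start are printed for NDUFA13 and NDUFA3, the 2 subunits furthest towards the short telomere cells in the comparison of groups, and for NDUFA9, the furthest towards the long telomere cells. Capitals mark motif letters.
NDUFA13 (chr19:19515975-19516224, + strand): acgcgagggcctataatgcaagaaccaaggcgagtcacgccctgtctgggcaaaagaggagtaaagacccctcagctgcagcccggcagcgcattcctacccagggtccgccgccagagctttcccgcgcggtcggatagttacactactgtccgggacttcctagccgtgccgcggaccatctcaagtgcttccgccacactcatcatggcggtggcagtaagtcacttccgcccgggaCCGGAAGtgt
NDUFA3 (chr19:54102605-54102854, + strand): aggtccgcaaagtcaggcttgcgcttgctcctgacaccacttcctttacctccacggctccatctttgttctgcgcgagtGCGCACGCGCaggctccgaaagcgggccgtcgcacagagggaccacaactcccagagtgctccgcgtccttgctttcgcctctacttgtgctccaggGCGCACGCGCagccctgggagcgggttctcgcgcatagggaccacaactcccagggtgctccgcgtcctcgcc
NDUFA9 (chr12:4648864-4649113, + strand): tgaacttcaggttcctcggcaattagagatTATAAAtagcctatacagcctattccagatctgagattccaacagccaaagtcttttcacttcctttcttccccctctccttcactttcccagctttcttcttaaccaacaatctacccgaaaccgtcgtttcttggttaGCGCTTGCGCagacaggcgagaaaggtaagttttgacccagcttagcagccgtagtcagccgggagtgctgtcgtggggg
NDUFA13 holds CCGGAAG beginning 10 bases before the start, NDUFA3 holds the NRF1 letters at 170 and at 73 bases before it, and NDUFA9 holds NRF1 letters at 80 and TATAAA at 220 bases before it.

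Complex I transcripts were abundant and present in almost every cell. Of the 39 subunits, 15 were above TPM 1 in all 121 cells and 34 in at least 95% of them, and 32 were among the 1000 genes of highest mean TPM. The highest levels were those of NDUFS5 (1756 ± 737 TPM, SD, n = 121), NDUFA13 (1694 ± 2040), NDUFAB1 (1404 ± 784), NDUFB2 (1142 ± 1533) and NDUFB9 (1042 ± 824). NDUFS5 is a small protein of the membrane arm facing the intermembrane space, NDUFA13 (also known as GRIM-19) anchors at the joint of the arms, and NDUFAB1 is the mitochondrial acyl carrier protein. At the other end, NDUFA10, which is related to nucleoside kinases, averaged 26.0 ± 28.3 TPM, the iron-sulfur protein NDUFS1 33.2 ± 32.4, NDUFA5 63.0 ± 38.0, and NDUFV1, which binds the flavin and accepts electrons from NADH, 71.3 ± 70.3. NDUFS1 was also the subunit detected in the fewest cells among those read, at 81.0%.

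NDUFA4L2, the paralog of NDUFA4, averaged 0.0419 TPM and was above TPM 1 in 1 medium telomere cell. NDUFA4 itself, now held to belong to cytochrome c oxidase rather than complex I, averaged 870 ± 285 TPM and had the lowest variation of all subunits among gene-rich cells (coefficient of variation 0.190). Without both genes the median long-short difference over the subunits was 0.54 over all cells and 0.11 among gene-rich cells. Reads of some subunits may also be shared with other genes. NDUFB4 and NDUFA5 each have 12 pseudogenes named after them in the annotation, NDUFS5 has 6 and NDUFA3 has 5. NDUFC2 lies within the read-through gene NDUFC2-KCTD14, NDUFA13 shares exonic sequence with YJEFN3 on its strand, and NDUFA7 overlaps RPS28 and NDUFA3 overlaps TFPT on the opposite strand. The library kit does not mark strand, so reads of these partners cannot be told apart.

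Across all cells, most tested genes averaged higher in long telomere cells than in short ones, and the complex I subunits did so to a smaller degree. The median difference over the 38 subunits was 0.54, against 1.40 over all tested genes and 1.34 over the 1358 genes that averaged 100 TPM or more. Long telomere cells were higher by at least 1 in 10 of 38 subunits, where 66.5% of all tested genes were called in this direction, and short telomere cells in 1 of 38, where 1.71% were. By any amount, long telomere cells were higher in 26 of 38 subunits against 90.9% of all tested genes. With medians over the cells of a group in place of means, the median over the subunits was 0.09 against 2.02 over all tested genes, with 20 of 38 higher in long telomere cells. The direction depended on the scaling: after a median-ratio scaling on the 602 genes with signal in each cell, the median was -0.13 over the subunits and 1.02 over all tested genes, and 15 of 38 subunits were higher in long telomere cells. Medium telomere cells were near the long ones, with a median difference to short telomere cells of 0.59 over the subunits and 1.23 over all tested genes. In that comparison 13 of 38 subunits were called towards medium telomere cells, where 59.9% of all tested genes were.

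Short telomere cell 6 carried much of the remaining difference. Without it the median over the subunits was 0.17, while that over all tested genes was 1.33, long telomere cells were higher in 20 of 38 subunits against 90.6% of all tested genes, and 9 (63.8% of all tested genes) and 3 (1.24%) subunits were called towards long and towards short telomere cells. The 3 were NDUFA3 (-1.26), NDUFA13 (-1.25) and NDUFB7 (-1.01).

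**Figure D1:**
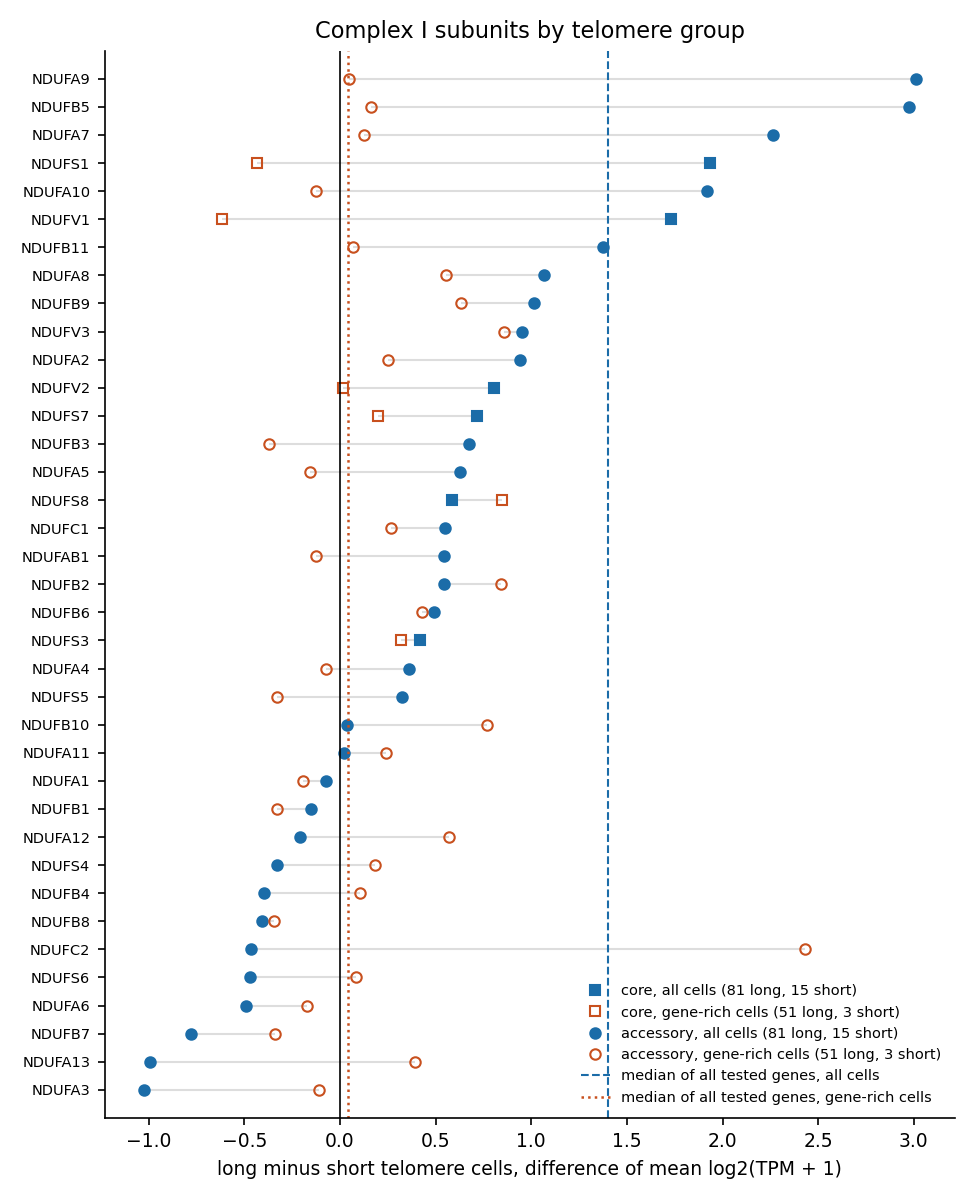
Difference of mean log2(TPM + 1) between long and short telomere cells for each subunit plotted, over all cells (filled) and gene-rich cells (open), with squares for core and circles for accessory subunits. Over all cells the subunits spread from -1.03 (NDUFA3) to 3.01 (NDUFA9), mostly left of the dashed median of all tested genes at 1.40, while the open symbols gather near 0 except NDUFC2 at 2.43.

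The core subunits were all higher on average in long telomere cells, with a median difference of 0.81 (0.58 without short telomere cell 6), and 3 of 7 were called, where 66.5% of all tested genes were. NDUFS1, which holds several iron-sulfur clusters of the peripheral arm, had a median of 32.1 TPM in long telomere cells (range 0 to 149), 17.7 TPM in medium (0 to 73.9) and 0.5 TPM in short telomere cells (0 to 201), where 8 of 15 cells were at or below TPM 1. The groups overlapped over their whole range, and the difference was 1.94 (4.38 ± 2.06 in long and 2.45 ± 2.79 in short telomere cells, SD), and of all pairs of a long with a short telomere cell, 68.3% had the higher level in the long one. NDUFV1 differed by 1.73, from 5.54 ± 1.83 to 3.81 ± 2.61 (SD). Smaller differences were 0.81 for NDUFV2, an iron-sulfur partner of NDUFV1, 0.72 for NDUFS7 and 0.58 for NDUFS8, both carriers of iron-sulfur clusters near the quinone site, and 0.42 for NDUFS3. Each of these differences is smaller than the SD across the short telomere cells, and without short telomere cell 6 that of NDUFS7 was 0.27 and that of NDUFS3 -0.08.

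Among the 31 accessory subunits read, the median difference was 0.36, with 7 called towards long and 1 towards short telomere cells, where 66.5% and 1.71% of all tested genes were. Without short telomere cell 6 this median changed sign, to -0.12, with 6 and 3 called (63.8% and 1.24% of all tested genes). The peripheral arm (16 subunits) had a median of 0.76 and the membrane arm (20 subunits) of 0.18, and without that cell 0.57 and -0.16.

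The accessory subunits furthest towards the long telomere cells were NDUFA9, NDUFB5, NDUFA7 and NDUFA10. NDUFA9, a nucleotide-binding protein at the joint of the arms (chr12:4758261-4803483, plus strand, GRCh37), had a median of 151 TPM in long (range 0.5 to 581), 194 TPM in medium (1.7 to 737) and 12.0 TPM in short telomere cells (0 to 3334). In 10 of the 12 gene-poor short telomere cells it was at or below TPM 25, as in 4 of 30 gene-poor long telomere cells, while the cell with 3334 TPM, the highest of all 121, was also a short telomere cell. The difference was 3.01 (7.03 ± 1.43 and 4.02 ± 3.44, SD), 2.73 without short telomere cell 6, and 79.3% of pairs favoured the long telomere cell.

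NDUFB5, a subunit of the membrane arm (chr3:179322478-179345435, plus strand, GRCh37), had a median of 297 TPM in long (0.9 to 838), 243 TPM in medium (46.9 to 729) and 65.4 TPM in short telomere cells (0 to 322). No short telomere cell exceeded 322 TPM, although the groups overlapped below it. Its difference was 2.97 (7.94 ± 1.42 and 4.97 ± 2.83, SD), 2.62 without short telomere cell 6, and 87.8% of pairs favoured the long telomere cell. This is the only subunit whose difference over all cells exceeded the SD across short telomere cells, and 6 of 12 gene-poor short against 3 of 30 gene-poor long telomere cells were at or below TPM 25. NDUFA7 differed by 2.26 and NDUFA10 by 1.92. The remaining subunits called in this direction were NDUFB11 (1.38), NDUFA8 (1.07) and NDUFB9 (1.02). Without short telomere cell 6 NDUFA8 (0.91) and NDUFB9 (0.78) were no longer called, and NDUFV3 (0.95 with that cell) was, at 1.10.

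The subunits furthest towards the short telomere cells were NDUFA3, NDUFA13 and NDUFB7, all counted to the membrane arm, followed by NDUFA6, NDUFS6 and NDUFC2. NDUFA3 (chr19:54606036-54612564, plus strand, GRCh37) had a median of 393 TPM in long (108 to 1669), 422 TPM in medium (178 to 2819) and 910 TPM in short telomere cells (89.5 to 8023). Short telomere cells held both the lowest and the highest value, and the difference was -1.03 (8.67 ± 0.78 and 9.70 ± 1.78, SD), with 29.1% of pairs favouring the long telomere cell. NDUFA13 (chr19:19626545-19639863, plus strand, GRCh37) had a median of 836 TPM in long (348 to 6538), 854 TPM in medium (583 to 7287) and 2241 TPM in short telomere cells (166 to 11756). Its difference was -0.99 (9.96 ± 0.92 and 10.96 ± 1.86, SD), with 32.9% of pairs favouring the long telomere cell. NDUFB7, a cysteine-rich protein of the intermembrane space side, differed by -0.78, and NDUFA6, which binds the acyl carrier protein, by -0.49, NDUFS6, a zinc-binding protein, by -0.47, and NDUFC2 by -0.47. Without short telomere cell 6 NDUFA6 was at -0.76 and NDUFS6 at -0.84. The differences over all cells were smaller in size than the SD across short telomere cells.

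**Figure D2:**
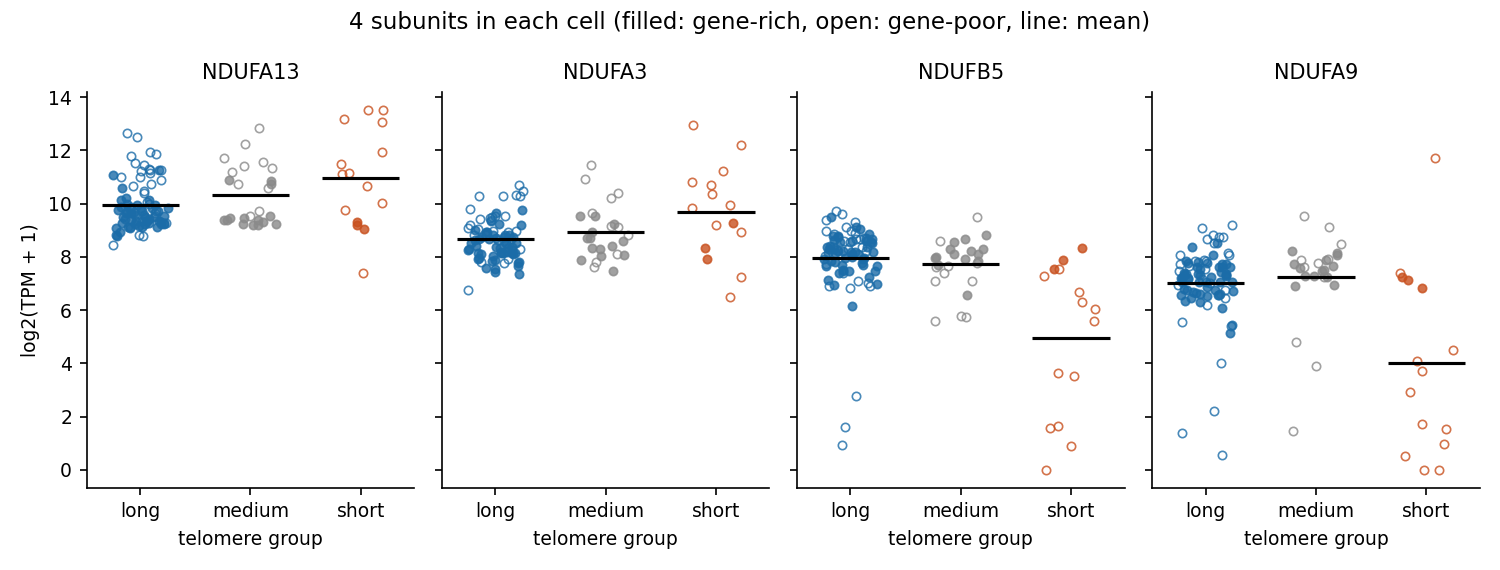
Log2(TPM + 1) of 4 subunits in each of 81 long, 25 medium and 15 short telomere cells, with gene-rich cells filled, gene-poor cells open and a line at each group mean. NDUFA13 and NDUFA3 were higher on average in short telomere cells (differences -0.99 and -1.03), NDUFB5 and NDUFA9 were lower (2.97 and 3.01), and in each case the gene-rich short telomere cells lay among the other gene-rich cells.

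Among gene-rich cells the differences were small. The median over the subunits was 0.10, against 0.04 over all tested genes, with 23 of 38 above 0 (52.4% of all tested genes), 1 called towards long (12.7%) and 0 towards short telomere cells (6.94%). Only 3 short telomere cells are in this comparison. The called subunit was NDUFC2 at 2.43, which rests on 1 short telomere cell at TPM 0, the others being at 126 and 144 TPM. In all cells its difference had the opposite sign. The read-through gene NDUFC2-KCTD14, which shares its exons, differed by -2.14 among the same cells.

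Next came NDUFV3 (0.86), NDUFS8 (0.85), NDUFB2 (0.84) and NDUFB10 (0.77), and at the other end NDUFV1 (-0.62), NDUFS1 (-0.43), NDUFB3 (-0.37) and NDUFB8 and NDUFB7 (both -0.34). NDUFS1 and NDUFV1, with wide gaps over all cells, thus had negative values here, and NDUFA9 and NDUFB5 differed by only 0.05 and 0.16. The core median was 0.02 and the accessory median 0.11.

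Among gene-poor cells the median was 0.52 over the subunits and 1.03 over all tested genes, and 0.23 and 0.97 without short telomere cell 6. By any amount, long telomere cells were higher in 26 of 38 subunits against 82.9% of all tested genes. They were higher by at least 1 in 14 of 38 subunits, where 51.0% of all tested genes were called, and short telomere cells in 1, NDUFS4 at -1.28, where 3.90% were. NDUFS4 is an accessory protein of the peripheral arm that is added late in assembly. The widest differences were again NDUFA9 (3.62) and NDUFB5 (3.47).

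Over all cells, the share of transcripts given to complex I and mean log level differed in opposite directions between long and short telomere cells. Both were higher on average in medium than in long telomere cells. Summed over the 39 subunits, TPM was 19555 ± 7125 (SD, n = 81) in long, 22624 ± 9979 (SD, n = 25) in medium and 32090 ± 19044 (SD, n = 15) in short telomere cells. In 25.7% of pairs the long telomere cell held the larger sum, and the ratio of the short to the long mean was 1.64 (1.70 without short telomere cell 6). The difference, long minus short, was -12535 TPM and smaller in size than the SD across short telomere cells. The mean log2(TPM + 1) over the 38 subunits, the complex I score, was 8.17 ± 0.46 in long, 8.30 ± 0.38 in medium and 7.60 ± 1.14 (SD) in short telomere cells. The sum is set by the most abundant subunits and the score counts each alike. The 5 highest subunits of a cell made up 36.1% ± 5.5 of its complex I transcripts in long and 51.3% ± 16.4 (SD) in short telomere cells.

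Among gene-rich cells the sums were 15921 ± 2796 (SD, n = 51) in long, 17508 ± 3683 (SD, n = 14) in medium and 15162 ± 997 (SD, n = 3) in short telomere cells, so the order of long and short was turned. The score of these gene-rich cells was 8.15 ± 0.19 in long and 7.99 ± 0.19 (SD) in short telomere cells, so both measures were lower in short ones. Among gene-poor cells they were 25732 ± 7991 (SD, n = 30), 29135 ± 11751 (SD, n = 11) and 36321 ± 19071 (SD, n = 12). Accessory subunits carried the higher sum of the short telomere cells, with 17699 ± 6504 TPM in long and 30084 ± 18379 in short, while the summed core subunits stood at 1855 ± 890 and 2006 ± 1306 TPM (SD).

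**Figure D3:**
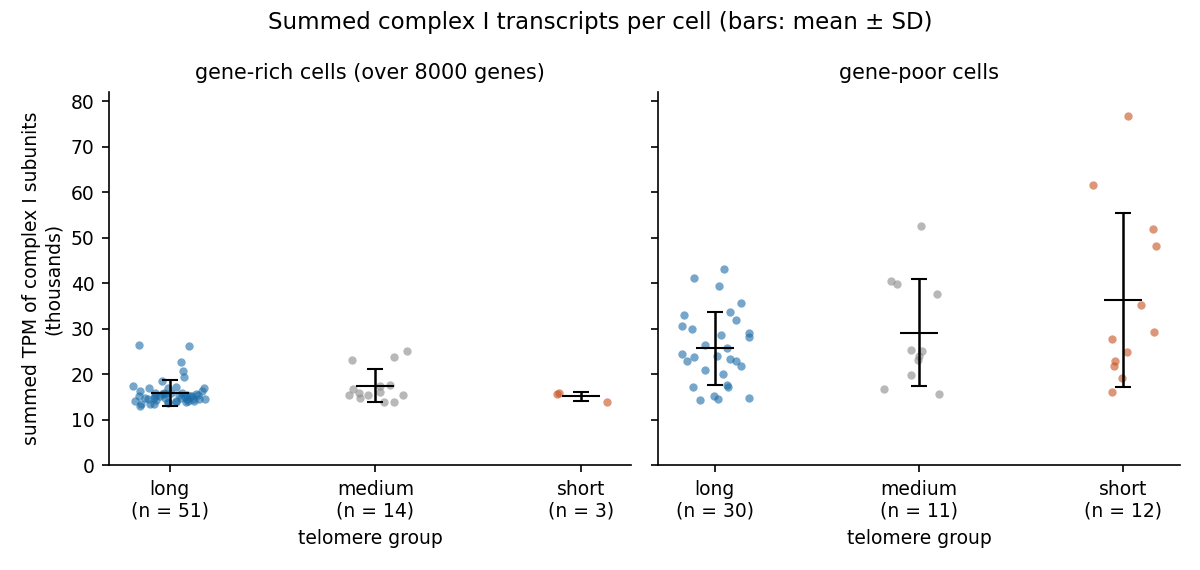
Summed TPM of the 39 complex I subunits (axis in units of 1000 TPM) in each cell by telomere group, for gene-rich cells on the left and gene-poor cells on the right, with bars at mean ± SD. Gene-rich cells of every group lie between 13050 and 26384 TPM, and gene-poor cells spread up to 76626 TPM in a short telomere cell.

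The summed level correlated more strongly with the number of detected genes than with the T/R ratio. Across 121 cells, which share a line, the number of genes above TPM 1 correlated with the summed complex I level at r = -0.705 (Spearman's rho -0.665), and -0.359 among gene-rich and -0.544 among gene-poor cells. A negative correlation was not particular to complex I. Over all cells, summed TPM had r = -0.711 for mitochondrial ribosomal proteins and -0.454 for complexes III to V, but 0.730 for cytosolic ribosomal proteins. The part of detection in the group differences was not tested beyond these splits.

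**Figure D4:**
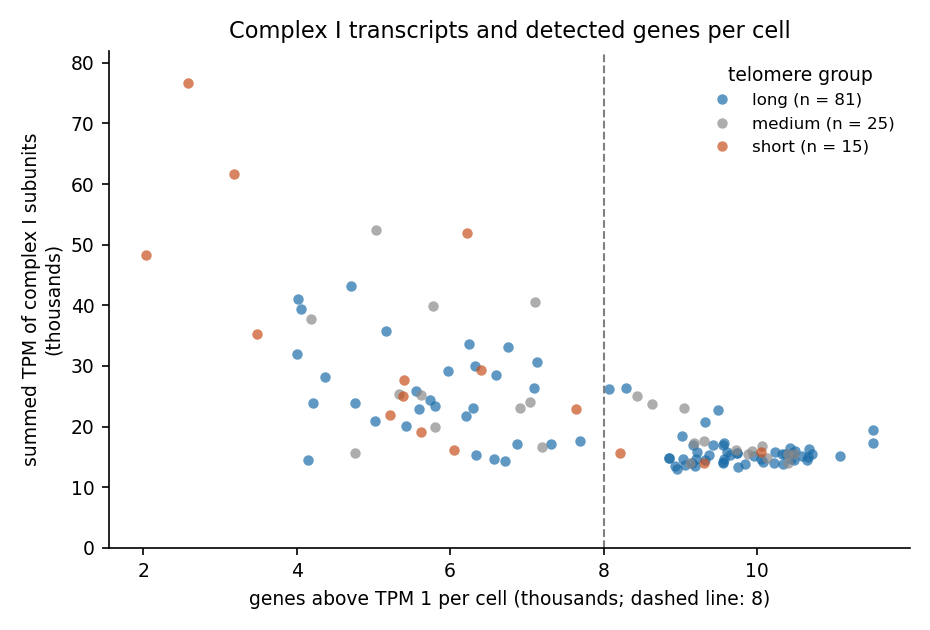
Summed TPM of the complex I subunits against the number of genes above TPM 1 in each cell (both axes in units of 1000), coloured by telomere group, with a dashed line at the border of gene-rich cells. The sum is lower where more genes are detected (r = -0.705, n = 121), with 12 of 15 short telomere cells left of the border.

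The same contrast can be read inside the long telomere group, where telomere group is held fixed. The T/R ratio is not, and it correlated there with the number of detected genes at r = -0.358. Between the 30 gene-poor and 51 gene-rich long telomere cells, the median difference (gene-poor minus gene-rich) was 0.09 over the subunits and -1.19 over all tested genes, and 22 of 38 subunits were higher in gene-poor cells, against 10.5% of all tested genes. Gene-poor cells were higher by at least 1 in 3 subunits (0.756% of all tested genes) and gene-rich cells in 3 (59.0%). Cells were split by the number of genes above TPM 1, so lower values of most tested genes in gene-poor cells follow from the split. Over the 1358 genes that averaged 100 TPM or more, the median was -0.44, and 404 were higher in gene-poor cells. Of these 1358, 34 were called towards gene-poor and 340 towards gene-rich cells. The 3 subunits called towards gene-poor cells were NDUFB2 (1.26), NDUFB10 (1.04) and NDUFA13 (1.03), all of the membrane arm. NDUFB2 had a median of 1566 TPM in gene-poor and 483 TPM in gene-rich long telomere cells.

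The 3 higher in gene-rich cells were the peripheral arm subunits NDUFS1 (-2.28), NDUFS4 (-1.53) and NDUFV1 (-1.05). NDUFS1 had medians of 8.0 TPM in gene-poor and 37.2 TPM in gene-rich long telomere cells, and 27.3% of pairs favoured the gene-poor cell. The medians of the others were close, 333 and 348 TPM for NDUFS4 and 60.8 and 67.2 TPM for NDUFV1. For these, 45.7% and 45.2% of pairs favoured the gene-poor cell. The SD of log2(TPM + 1) of NDUFS4 was 3.14 across gene-poor and 0.49 across gene-rich long telomere cells. The membrane arm had a median of 0.13 and the peripheral arm of -0.31, the accessory subunits 0.11 and the core subunits -0.76. The core value is that of NDUFS7, whose median TPM was higher in gene-poor cells (206 against 164 TPM). The summed core TPM was also higher there, at 2570 ± 1110 against 1435 ± 257 (SD) in gene-rich long telomere cells. These medians of log2 differences thus depend on cells with values near 0. This comparison shares its long telomere cells with that between telomere groups.

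Core subunits were lower than accessory subunits in every group. Per cell, the mean log2(TPM + 1) of the core minus that of the accessory subunits was -1.61 ± 0.76 in long, -1.59 ± 0.60 in medium and -2.27 ± 0.98 (SD) in short telomere cells, with 74.2% of pairs favouring the long telomere cell. Among gene-rich cells it was -1.36 ± 0.28, -1.54 ± 0.27 and -1.12 ± 0.56 (SD), with 37.9% of pairs doing so. Among gene-poor cells it was -2.04 ± 1.07, -1.65 ± 0.87 and -2.55 ± 0.85 (SD), with 68.6% of pairs doing so. The wider gap of the short telomere cells was thus seen with gene-poor cells included, and not among the 3 gene-rich ones. Gene-poor long telomere cells also had a wider gap than gene-rich long ones.

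Class and transcript length go together in this complex. The annotated transcript with the longest coding sequence measured 417 bases (NDUFB1) to 8356 bases (NDUFA9), with a median of 942 bases for core and 675 bases for accessory subunits. Split at 716.5 bases, all 7 core subunits were among the 19 longer ones. The class of some accessory subunits depends on the transcript chosen. NDUFB5 measured 671 bases here but 4199 in its canonical transcript, NDUFA11 2406 and 575, and NDUFB11 1525 and 586. The 19 shorter subunits had a median difference between long and short telomere cells of 0.04, the 19 longer ones of 0.72. Without short telomere cell 6 these were -0.19 and 0.55, so the sign of the former rests on that cell. Over all tested genes with an annotated coding transcript, the medians were 0.73 for the 233 genes as short and 1.47 for the 5268 longer genes, so the subunits lay below in both length classes.

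Within the accessory subunits alone, the medians were 0.04 for the 19 short and 0.56 for the 12 long, and -0.19 and 0.31 without short telomere cell 6. Across the 38 subunits, Spearman's rho between length and difference was 0.37 (0.46 with the coding length), and between mean TPM and difference -0.58, while the shorter subunits were also the more abundant ones (median of the means 733 against 259 TPM). Across the 5501 tested genes with a length, these values were 0.012 and 0.17. Genes are not independent replicates, and length and level could not be told apart over so few subunits. Among gene-rich cells rho with length was 0.032.

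**Figure D5:**
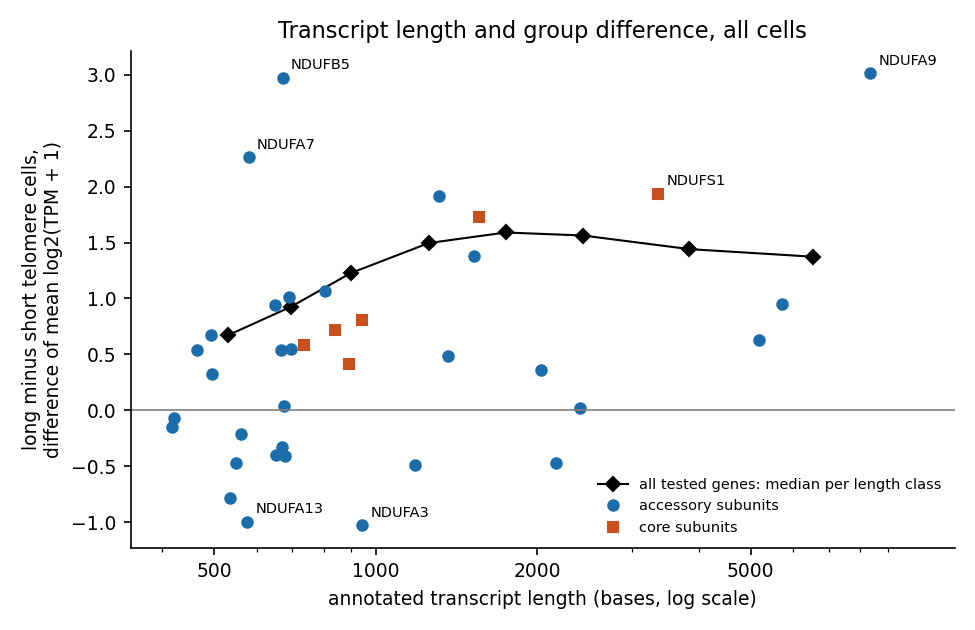
Difference of mean log2(TPM + 1) between long and short telomere cells against annotated transcript length on a log axis, for accessory subunits (circles), core subunits (squares) and, as diamonds, the median of all tested genes in each length class. The median of all genes rises from 0.67 below 600 bases to 1.59 between 1500 and 2000 bases, and most subunits lie under it. NDUFB5 and NDUFA7 lie furthest above it among short transcripts, although the canonical transcript of NDUFB5 has 4199 bases.

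Per cell, the mean log2(TPM + 1) of the shorter minus that of the longer subunits was 1.71 ± 0.42 in long, 1.77 ± 0.56 in medium and 2.21 ± 0.68 (SD) in short telomere cells, with 72.8% of pairs favouring the short one. Among gene-rich cells it was 1.55 ± 0.19, 1.63 ± 0.19 and 1.62 ± 0.27 (SD). Among gene-poor cells it was 2.00 ± 0.54, 1.95 ± 0.79 and 2.36 ± 0.67 (SD), with 65.6% of pairs favouring the short one.

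Against the T/R ratio as the study lists it for each cell, single subunits showed weak relations. Over all 121 cells the median of Pearson's r between level and T/R ratio was -0.0856 over the subunits and 0.0422 over all tested genes, with 29 of 38 subunits below 0 against 37.7% of all tested genes. Genes with short transcripts were also mostly below 0. Of the 233 tested genes as short as the 19 shorter subunits, 64.4% were below 0 (median -0.0575), against 15 of these 19. Of the 5268 longer genes 34.8% were, against 14 of the 19 longer subunits. At -0.2 or lower was 1 subunit, NDUFA3 (r = -0.216), where 2.09% of all tested genes were. NDUFC2 (-0.194), NDUFB1 (-0.189), NDUFA13 (-0.182) and NDUFB7 (-0.179) followed. At 0.2 or higher were 2, NDUFB5 (r = 0.366, rho 0.327) and NDUFA10 (r = 0.257, rho 0.305), where 11.7% were, followed by NDUFV2 (0.180), NDUFAB1 (0.125) and NDUFB9 (0.108).

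Among gene-rich cells NDUFB5 had r = 0.0257 and among gene-poor cells 0.492. Among gene-rich cells 9 subunits were at -0.2 or lower, where 5.12% of all tested genes were, and 0 at 0.2 or higher (8.84%). They were NDUFAB1 (-0.332), NDUFA4 (-0.317), NDUFB4 (-0.307), NDUFB11 (-0.239), NDUFS5 (-0.232), NDUFA9 (-0.220), NDUFB3 (-0.216), NDUFB1 (-0.207) and the core subunit NDUFS3 (-0.205). Over all 38 subunits the median among gene-rich cells was -0.0440, with 23 below 0 against 44.1% of all tested genes. Of the 233 tested genes with short transcripts, 32 were at -0.2 or lower and 58.8% below 0. Of the 19 shorter subunits, 5 and 14 were. Of the 5268 longer genes, 251 were at -0.2 or lower and 43.7% below 0, against 4 and 9 of the 19 longer subunits. Among gene-poor cells 30 were below 0 (39.8%), 4 were at -0.2 or lower (5.67%) and 4 at 0.2 or higher (20.7%).

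The summed TPM had r = -0.158 (rho -0.214) with the T/R ratio over all cells, -0.176 among gene-rich and -0.189 among gene-poor cells. Inside the long telomere group it had the opposite sign, r = 0.349 (n = 81), and inside the medium and short groups it was -0.297 (n = 25) and -0.520 (n = 15). The score had r = 0.127 (rho 0.00352) over all cells, 0.0652 without short telomere cell 6 and -0.0831 among gene-rich cells. The sign of the sum's correlation thus differed between the telomere groups and, inside the long group, between gene-rich and gene-poor cells. That of the score's differed between all and gene-rich cells.

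Other genes of the pathway were read by the same measure. The assembly factors, which build the complex and leave it, had a median difference between long and short telomere cells of 1.57, with 15 of 17 called towards long telomere cells, where 66.5% of all tested genes were, among them TMEM126A (2.94), TIMMDC1 (2.87), TMEM70 (2.74) and NDUFAF2 (2.09). Complex II, which feeds electrons from succinate, had 4 of 4 called with a median of 2.14. Complexes III to V had a median of 0.80 with 13 of 37 called, mitochondrial ribosomal proteins 1.42 with 47 of 77, and cytosolic ribosomal proteins 0.73 with 23 of 82. The median of the assembly factors thus lay near that of all tested genes (1.40), and the subunits of complexes I and III to V lay below it. Without short telomere cell 6 the median was 0.47 for complexes III to V and 0.48 for cytosolic ribosomal proteins. Among gene-rich cells these medians were -0.06, -0.41, 0.01, 0.06 and 0.09.

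Complex I transcripts also stood higher against those of the later complexes in short telomere cells. The ratio of summed complex I to summed complex III to V TPM was 0.515 ± 0.113 in long, 0.567 ± 0.148 in medium and 0.791 ± 0.329 (SD) in short telomere cells, with 21.3% of pairs favouring the long one. It was 0.457 ± 0.056 in long and 0.455 ± 0.031 (SD) in short telomere cells among the gene-rich cells, and 0.615 ± 0.118 and 0.875 ± 0.315 (SD) among the gene-poor cells.

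Subunits varied together from cell to cell, but loosely. Among 68 gene-rich cells the median correlation of log2(TPM + 1) over 703 pairs of subunits was 0.117, against 0.00392 between subunits and tested genes, and 71.7% of pairs were above 0 (50.9% with other genes). Among 53 gene-poor cells it was 0.186 against 0.0587. The 21 pairs of core subunits had medians of 0.0599 and 0.166. The closest pair among gene-rich cells was NDUFA13 and NDUFA6 (0.684), and the most opposed NDUFB1 and NDUFV3 (-0.398). With the mean of the other subunits, NDUFB2 (0.705), NDUFA6 (0.685) and NDUFA13 (0.675) had the highest correlations and NDUFA5 (-0.20) and NDUFV1 (-0.0915) the lowest. Subunits of a cell share its library and depth. They were also more abundant than the tested genes (median of the means 475 against 30.8 TPM), and genes of like level were not compared.

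The genes outside the complex most like the score among gene-rich cells were HMGB1 (r = 0.768), a chromatin protein, CDC123 (0.765), TMA7 (0.752), KNOP1 (0.747), the tubulin TUBA1B (0.738), the ATP synthase subunit ATP5J2 (0.734), the translation factor subunit EIF2S2 (0.729), PET100 (0.724), which helps assemble cytochrome c oxidase, MIF (0.720) and SET (0.720). The median over 6175 genes was 0.0265, and 0.166 among gene-poor cells. Spearman's rho was lower for all 10, from 0.423 (TUBA1B) to 0.612 (ATP5J2). Without the 3 gene-rich cells of highest score, r was 0.580 (TUBA1B) to 0.686 (HMGB1). Long telomere cells 70, 71 and 74 and medium telomere cell 25, with scores of 8.58 to 8.67, stayed in (gene-rich median 8.15). Their ratio of summed complex I to cytosolic ribosomal protein TPM was 0.0932 to 0.156, against a gene-rich median of 0.0563. Leaving out 3 cells therefore cannot show that r is free of a few cells. Among gene-poor cells the same 10 genes had r from 0.306 to 0.639. Of the regulators searched for in the promoters, YY1 had r = 0.0187 with the score among gene-rich cells and 0.321 among gene-poor cells, GABPA had -0.0176 and 0.138, and NRF1, at a mean of 2.42 TPM, had 0.0583 and 0.00754.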

How the data were processed

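Single WA26 hESCs were lysed, mRNA was captured on oligo-dT beads and amplified by Smart-seq2, and tagmentation libraries were sequenced. TPM values were deposited by the authors as 1 table over 121 cells, rounded to 2 decimals. The methods name TopHat and HTSeq counts per RefGene gene on hg19 with size factors, and the submitters' processing notes name TopHat2, RSEM and hg19. Deposited TPM summed to between 979828 and 997050 in every cell, read counts were not used here, and 1 incomplete gene was left out. Counting depth per gene is therefore unknown, and no counting interval is given.

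Groups were taken from the labels, and the T/R ratio from the list of the study. Per subunit, group means of log2(TPM + 1), SD across cells, the percentage of all long-short pairs that favoured the long one and Pearson and Spearman correlations were computed with Python 3.11.15, numpy 2.4.6 and pandas 2.3.3, and checked on simulated data. With 1 sample per group no test was made. A difference of 1 on the log2 scale or an r of 0.2 in size counted as called. Gene positions and lengths came from GENCODE on GRCh37 (5501 of 6213 tested genes, 88.5%), which may differ from the authors' gene models, and promoters from RefSeq on GRCh38.p14.

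Named with values were core subunits, the 5 highest and 5 lowest subunits by mean TPM, by difference (all and gene-rich cells) and by correlation with the T/R ratio, the subunits that the study names, NDUFA4, NDUFA4L2 and the 10 most similar other genes. The subunits, gene lists and splits were chosen with earlier results of these data known. Alternatives covered pseudocount, mean or median, low values, scaling, cells left out, borders of the splits, kind of correlation and transcript length. Short telomere cell 6 was singled out after its values were seen. Results of 1 subunit are not reported here by name or drawn by subunit, while counts, medians and sums over the subunits include it.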

Additional observations from a re-analysis of the deposited data

How the results depend on the processing

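Of 141 recomputed values, 123 stayed within the limits set for them (0.5 on the log2 scale, 0.1 for r, 1.5 times for counts and ratios). These limits are about as wide as the values themselves, so staying within them does not show stability. The subunit median, 0.54 against 1.40 over all tested genes, was 0.09 against 2.02 with medians over cells (20 subunits higher in long telomere cells). For the 40 cells of highest against the 40 of lowest T/R ratio it was 0.09 against 0.46 (23 higher). Without short telomere cell 6 it was 0.17 against 1.33 (20 higher). A pseudocount of 10 gave 0.33 against 0.60, and a pseudocount of 0.1 gave 0.63 against 2.18. The gap to all tested genes thus depended on the pseudocount. Scaling by the median ratio over 602 genes detected throughout (above TPM 0) lowered the median difference of all tested genes from 1.40 to 1.02. Under it the subunit median was -0.13 over all and -0.17 among gene-poor cells, 15 subunits in place of 26 were higher in long telomere cells, the short to long ratio of summed TPM was 3.24, and the correlations with the T/R ratio were -0.278 for the sum and -0.0686 for the score, and among gene-poor cells -0.346 and -0.0605. The cause was not tested. With Spearman's rho the score had 0.00352 over all cells, the sum -0.276 among gene-rich cells and the median subunit 0.0213 among gene-poor cells. Leaving out the 2 cells of most extreme T/R ratio, the sum had -0.265, and -0.296 among gene-poor cells. With log2 of the T/R ratio the sum had -0.394, the score 0.228, and the sum among gene-poor cells -0.378. With union exon length the short against long transcript difference was -1.06 in place of -0.50, and with the canonical transcript it was -0.75. Among gene-rich cells alone the ratio of summed TPM was 0.952 in place of 1.64, the opposite direction, on 3 short telomere cells. Leaving out short telomere cell 6, the canonical transcript and the split of summed TPM by detected genes were chosen after seeing the data. No paired analysis was possible because the replicate numbers only count the cells of each group and no test was made.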
